A study of Mus musculus with 4 samples.

Results

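The exostosin glycosyltransferases are a family of 5 genes (Ext1, Ext2, Extl1, Extl2 and Extl3), and all 5 were among the 34866 genes measured. They were taken by name, with 1 qualification: Extl2 was selected because its level was lower in the Tom+ cells of both tumors, so its Tom+ against Tom- values are a description and carry no test. The other 4 genes came in as its relatives. The 4 libraries were made from B220+ IgM+ splenocytes of 2 λ-MYC Tom+/ki mice, each bearing an IgM+ Tom+ tumor (tumors #1 and #2). Cells of each mouse were sorted into Tom+ and Tom-, which gave 2 libraries per group. All 4 carry the λ-MYC transgene, which places a translocated human MYC under immunoglobulin λ regulatory sequences, together with a Cre knock-in allele and R26tdTom+/ki. Cre turns on the red protein Tomato (Tom) for good, so Tom marks cells that have expressed Cre at some time, and not only those expressing it when sorted. There was 1 mouse per tumor, and ages are not given in the labels. Tom- cells came from the same tumor-bearing spleens and are not cells of a healthy mouse.

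Heparan sulfate is a sulfated sugar chain attached to core proteins of the cell surface and matrix, where it binds growth factors, chemokines and adhesion molecules. Enzymes of the Golgi first build a short linker sugar on a serine of the core protein. Extl3 is known for adding the first N-acetylglucosamine to that linker, and Ext1 and Ext2 form the complex that then lengthens the chain by alternating glucuronic acid and N-acetylglucosamine. Extl1 has N-acetylglucosamine transferase activity of the elongation type. Extl2 is known for adding N-acetylglucosamine to a linker whose xylose carries a phosphate, which ends the chain there. Fam20b is the kinase that places this phosphate and Pxylp1 the phosphatase that removes it. Inherited loss of 1 copy of the human genes EXT1 or EXT2 causes multiple bone exostoses, from which the family takes its name.

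Levels are given in transcripts per 1000000 (TPM), a unit scaled for transcript length, so levels of different genes can be set side by side within a library. Differences are given in log2(TPM + 1), as Tom+ minus Tom- within each tumor, and this scale understates the change of genes with low TPM. For each difference, the mean of the 2 tumors is given with the standard deviation (SD) between them, or with the standard error (SE) from limma. Where a pair of levels is given for a tumor, the Tom- library comes first. Of the 5 genes, 4 reached 1 TPM in at least 2 libraries and entered the fit of 11339 genes. Ext1 did not.

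Extl2 (ENSMUSG00000027963) was the family member with the highest level in Tom- cells of both tumors. Its level was 22.1 TPM in Tom- and 2.99 TPM in Tom+ cells of tumor #1. In tumor #2 it was 27.4 TPM in Tom- and 5.18 TPM in Tom+ cells. Both Tom+ libraries thus lay below both Tom- libraries, and the lowest Tom- value was several times the highest Tom+ value. The Tom+ level was 13.5% of the Tom- level in tumor #1 and 18.9% in tumor #2, that is 7.42-fold and 5.29-fold lower. On the log2 scale the differences were -2.54 and -2.20, with a mean of -2.37 ± 0.24 (SD, n = 2 tumors). As the gene was selected on this contrast, these values are no evidence from a test. Among 10079 protein-coding genes tested, 3 were lower in Tom+ cells by at least 2 log2 units in both tumors. They were Extl2, Zfp771 and 1810043G02Rik, a list read from the values and not fixed by a rule. The limit lies close to the Extl2 difference of -2.20 in tumor #2, so nothing is read from the place of Extl2 on this list. Over all 11339 genes tested, 12 were lower by that limit in both tumors and 18 were higher. Of the 18, 1 was protein-coding. Zfp771, a zinc finger gene, lay on the far side of Extl2 with differences of -2.58 and -4.09. Both groups of Extl2 values came from bulk samples, in which fewer cells that express a gene and less RNA per cell cannot be told apart.

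In Tom- cells Extl2 exceeded 84.7% of all protein-coding genes in tumor #1 and 85.3% in tumor #2. In Tom+ cells it exceeded 63.8% and 65.7%. The gene therefore remained detected in both Tom+ libraries, at a rank close to that of Ext2 in Tom- cells of tumor #1 (63.7%). These ranks count all protein-coding genes, also those at or near 0. Extl1, at 0.382 TPM in Tom- cells of tumor #1, already exceeded 53.4% of them.

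**Figure D1:**
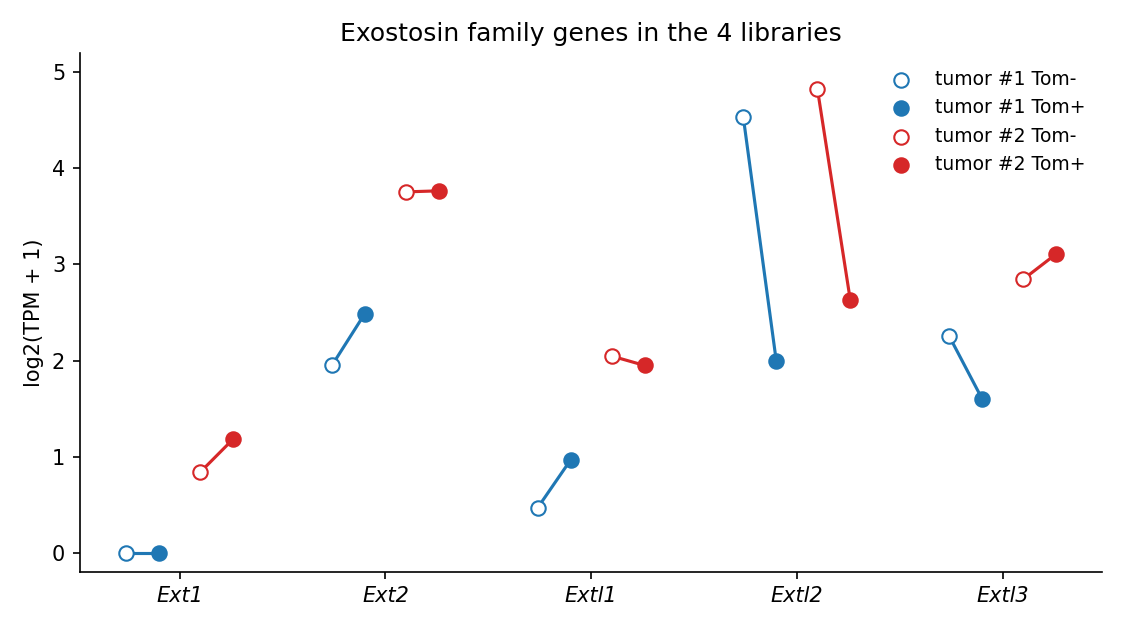
Level of each exostosin gene, as log2(TPM + 1), in the 4 libraries. Each point is 1 library, open for Tom- and filled for Tom+, with lines joining the 2 libraries of a mouse, blue for tumor #1 and red for tumor #2; Extl2 goes from 22.1 to 2.99 TPM and from 27.4 to 5.18 TPM, while Ext1, Ext2, Extl1 and Extl3 differ more between the tumors than between Tom- and Tom+ cells in most pairs.

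Extl2 lies on the plus strand of chromosome 3, at chr3:116007462-116029017 in GRCm38, with 6 annotated transcripts. Its closest neighbor, Slc30a7, runs in the opposite direction on the minus strand (chr3:115938973-116007406), and the annotated genes are 55 bases apart. The pair thus share the DNA between their starts, and the values of Slc30a7, the other gene of this divergent pair, are given below. In the RefSeq models of GRCm38.p6 the start sites are 116007406 for Slc30a7 and 116007449 for Extl2. The 42 bases between them, chr3:116007407-116007448 on the plus strand, are shown because both genes start at their edges. Capitals mark the only GC box (GGGCGG, searched on both strands):
Slc30a7-Extl2 interval: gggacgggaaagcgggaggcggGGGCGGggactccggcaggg
Of these bases 81.0% are G or C. The 300-base window around the Extl2 start, from 250 bases before to 50 after, has 69.3% G and C, against a median of 52.7% over the RefSeq windows. It holds that GC box, which occurs in 35.7% of 32851 windows. It holds neither the E-box CACGTG, the letters bound by MYC with its partner MAX and found in 7.15% of windows, nor CCAAT, found in 37.4%. These matches describe letters only.

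Within 100 kb of Extl2 there are 11 annotated genes, of which 5 are in the table and 2 passed the filter. Slc30a7, which encodes a zinc transporter of the early secretory pathway, had 13.2 TPM in Tom- and 19.1 TPM in Tom+ cells of tumor #1, against 34.7 and 33.9 TPM in tumor #2. Its levels separated the tumors and not the Tom groups. Its mean difference was 0.24 (SE 0.22, 95% interval -0.42 to 0.90, adjusted p = 0.936 with limma). The relation of its level to that of Extl2 was not tested. Dph5, an enzyme of diphthamide synthesis, had 19.8 and 21.7 TPM in tumor #1, against 23.2 and 28.5 TPM in tumor #2. Its mean difference was 0.20 (SE 0.16, 95% interval -0.29 to 0.70, adjusted p = 0.936 with limma). Vcam1, the adhesion molecule of endothelium and stroma, was between 0.181 and 0.378 TPM in all 4 libraries and was not tested. The remaining 2 genes in the table, both processed pseudogenes (Gm43106 and Gm6649), were listed at 0 in every library. Neither of the tested neighbors was lower in the Tom+ cells of both tumors.

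**Figure D2:**
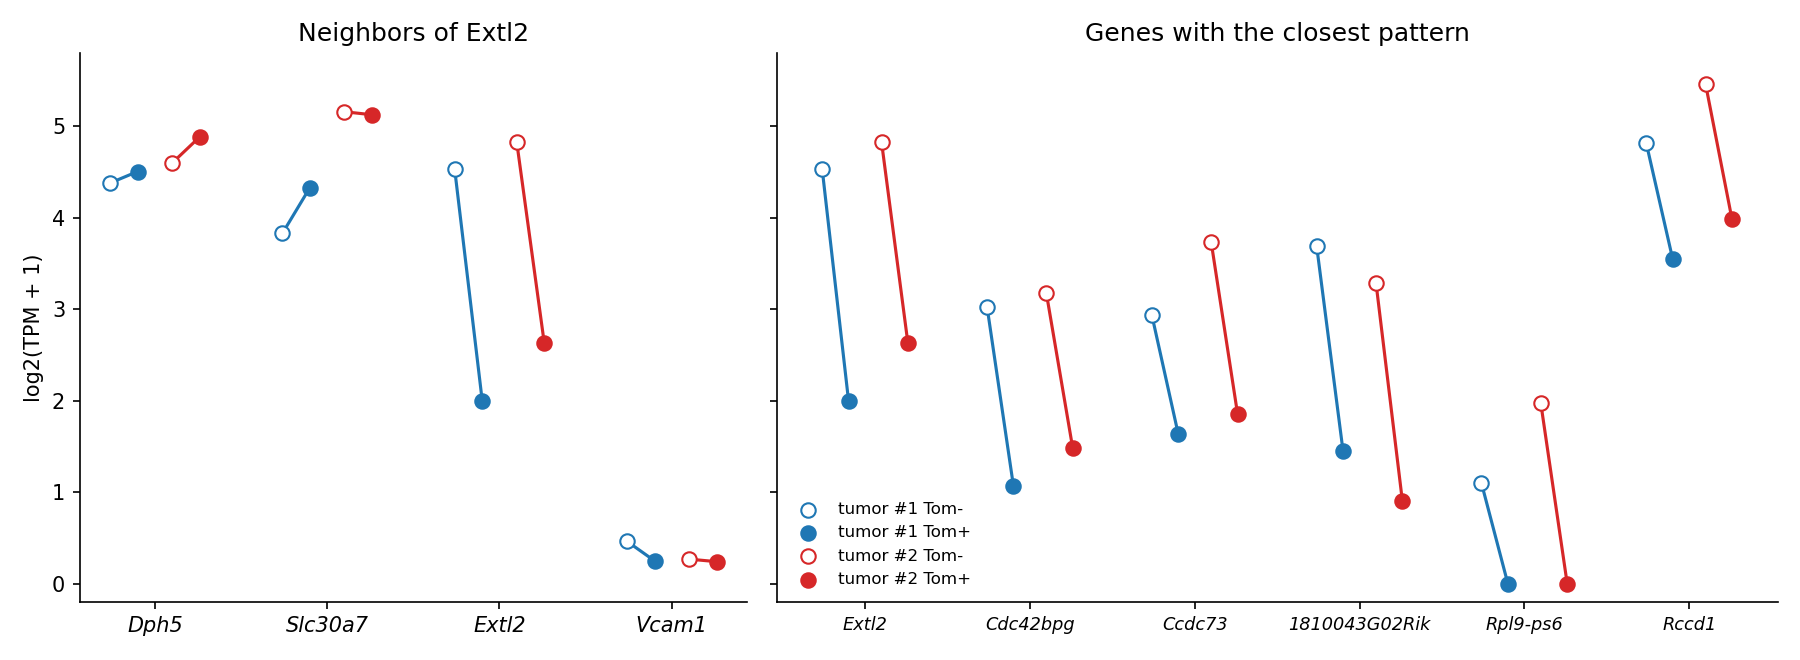
Left, log2(TPM + 1) of Extl2 and of the 3 protein-coding genes within 100 kb of it, in each library; right, Extl2 beside the 5 protein-coding genes with the closest pattern. Points are single libraries, open for Tom- and filled for Tom+, joined within a tumor; Dph5 and Slc30a7 stay near their Tom- level or above it, and the 5 genes on the right were selected for a pattern like that of Extl2.

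Ext1 and Ext2, the chain-lengthening pair, differed in level. Ext1 (ENSMUSG00000061731, chr15:53064038-53346159) was listed at 0 in both libraries of tumor #1 and had 0.788 TPM in Tom- and 1.27 TPM in Tom+ cells of tumor #2. With 1 library above 1 TPM it was not tested, and no fold is given for tumor #1. Ext2 (ENSMUSG00000027198, chr2:93661028-93822568) had 2.86 TPM in Tom- and 4.61 TPM in Tom+ cells of tumor #1. In tumor #2 it had 12.5 and 12.6 TPM. The Tom+ value was the higher of the pair in both tumors, by 0.54 in tumor #1 and by 0.0057 in tumor #2 on the log2 scale. The mean difference of 0.27 (SE 0.24, 95% interval -0.47 to 1.02) had an adjusted p of 0.936 with limma. Tom+ and Tom- ranges of Ext2 overlapped, since both tumor #2 libraries were above both tumor #1 libraries. The annotated span of Ext2 overlaps Alx4 and the pseudogene Gm13818 on the other strand. Neither exceeded 0.0768 TPM in any library.

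Extl3, the gene for the enzyme that starts the chain (ENSMUSG00000021978, chr14:65052060-65149855), had 3.78 TPM in Tom- and 2.04 TPM in Tom+ cells of tumor #1. In tumor #2 it had 6.18 and 7.62 TPM. The Tom+ level was therefore the lower of the pair in tumor #1 (-0.65) and the higher in tumor #2 (0.27). The mean difference was -0.19 (SE 0.33, 95% interval -1.20 to 0.81, adjusted p = 0.958 with limma). Extl1 (ENSMUSG00000028838, chr4:134356372-134383850) was low, at 0.382 TPM in Tom- and 0.951 TPM in Tom+ cells of tumor #1. It had 3.13 and 2.86 TPM in tumor #2. Its differences were 0.50 and -0.097, again opposite in sign, with a mean of 0.20 (SE 0.28, 95% interval -0.67 to 1.07, adjusted p = 0.952 with limma). The intervals of Ext2, Extl1 and Extl3 each reach beyond 1 log2 unit on 1 side, so changes of moderate size in these genes were not detectable with 2 tumors.

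No member passed an adjusted p of 0.05, and neither did any other gene (0% of the 11339 tested, smallest adjusted p 0.936). At an unadjusted p below 0.05, 530 genes passed (4.67%), and Ext2, Extl1 and Extl3 were not among them. By direction alone, 29.5% of genes were lower in the Tom+ cells of both tumors and 21.6% were higher in both. Of the 4 family members in the fit, Extl2 was lower in both, which is how it was selected, and Ext2 was higher in both. Extl1 and Extl3 had opposite signs. For 9.86% of genes both Tom+ values lay below both Tom- values, and in the family this held for Extl2, where nothing can be read from it. An exact permutation test of a single gene within the 2 pairs cannot give a p below 0.5, so no gene was tested that way.

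The make-up of the family's expression differed with the level of Extl2. Summed over the 5 genes, the family had 29.2 TPM in Tom- and 10.6 TPM in Tom+ cells of tumor #1, against 50.0 and 29.5 TPM in tumor #2. Without Extl2 the sums were 7.02 and 7.60 TPM in tumor #1, against 22.6 and 24.3 TPM in tumor #2. The other 4 genes together therefore had nearly the same sum in the Tom+ and Tom- cells of a tumor, with the Tom+ sum slightly the higher in both. Single genes did differ, and in tumor #1 they went in opposite directions within the sum. There Ext2 went from 2.86 to 4.61 TPM and Extl1 from 0.382 to 0.951 TPM, while Extl3 went from 3.78 to 2.04 TPM. In tumor #2 Extl3 was higher and Extl1 lower in Tom+ cells. Extl2 made up 75.9% of the family's TPM in Tom- cells of tumor #1 and 28.2% in its Tom+ cells. In tumor #2 its share was 54.8% in Tom- and 17.5% in Tom+ cells. As this share uses the values that selected Extl2, it is a description.

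**Figure D3:**
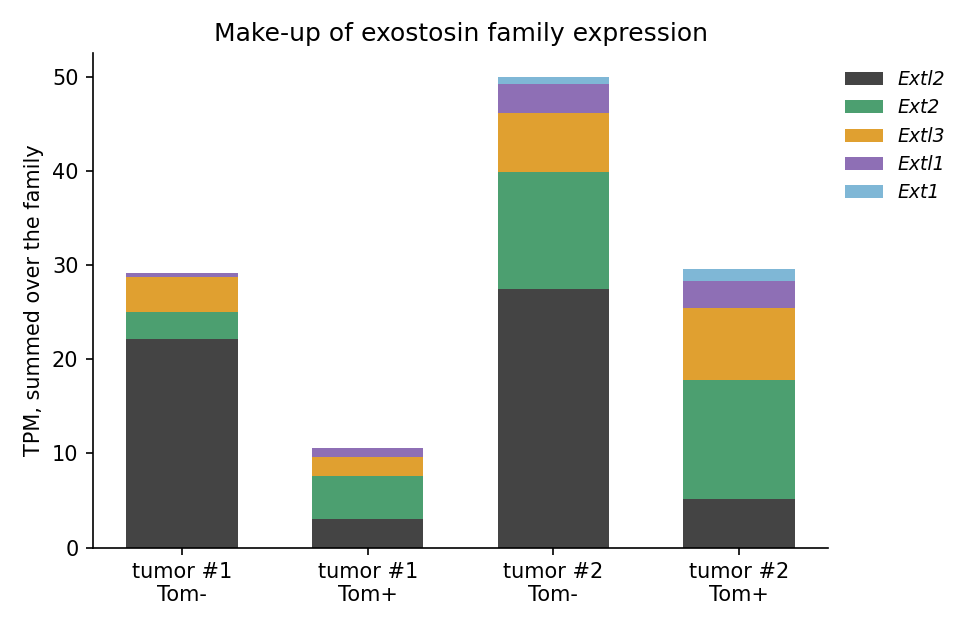
TPM of the 5 exostosin genes stacked for each library, with the axis starting at 0. Extl2 (dark) takes 75.9% and 54.8% of the family's TPM in the Tom- libraries and 28.2% and 17.5% in the Tom+ libraries, while the sum of the other 4 genes is about 7 TPM in tumor #1 and above 22 TPM in tumor #2.

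The order of the genes changed accordingly. In Tom- cells Extl2 was highest in both tumors and its range did not overlap that of any other member. Ext2 and Extl3 followed in an order that differed between the tumors, and Extl1 and Ext1 were the lowest. In Tom+ cells Ext2 was highest within each tumor. Across the tumors its range of 4.61 to 12.6 TPM overlapped those of Extl3 (2.04 to 7.62 TPM) and Extl2 (2.99 to 5.18 TPM). The overlap was between libraries of different tumors, and the order was not tested. The ratio of Extl2 to Ext2 was 7.74 in Tom- and 0.648 in Tom+ cells of tumor #1. In tumor #2 it was 2.19 and 0.412. The ratio of Extl2 to Extl3, the enzymes that act on the same linker, was 5.86 and 1.46 in tumor #1 and 4.43 and 0.679 in tumor #2. Both ratios were lower in the Tom+ cells of both tumors, and both contain the values that selected Extl2.

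The tumors also differed from each other in this family, which the selection of Extl2 did not use. With 1 mouse per tumor the differences are values without a test. Ext2 was 4.38-fold higher in tumor #2 than in tumor #1 in Tom- cells and 2.73-fold higher in Tom+ cells. Extl3 was 1.63-fold and 3.74-fold higher. Extl1 was 8.19-fold and 3.01-fold higher, but it reached 1 TPM only in the 2 libraries of tumor #2 and entered the fit through them, so nothing is read from its tumor difference. The corresponding ratios of Extl2 were 1.24 and 1.73, below those of Ext2 and Extl3 in each cell group. On the log2 scale the tumor difference averaged over Tom- and Tom+ cells was 1.54 ± 0.38 for Ext2, 1.28 ± 0.42 for Extl1, 1.05 ± 0.65 for Extl3 and 0.46 ± 0.24 for Extl2 (SD over the 2 cell groups). The median gene had 0.23 in Tom- and 0.19 in Tom+ cells. Ext2 and Extl3, which were above 1 TPM in all 4 libraries, had both tumor #2 libraries above both tumor #1 libraries. That pattern was found in 44.8% of all genes tested and is common in these data. Extl1 had it too, which the filter required of a gene above 1 TPM in tumor #2 only, as did Ext1, which was not tested.

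The remaining genes of the pathway were taken from 6 lists with 83 genes. Of these, 48 were tested, 13 were listed at 0 in every library, and no gene reached an unadjusted p of 0.05 (4.67% of all genes did). The largest mean difference in either direction was -0.72, for Chst12, a chondroitin sulfotransferase named here for that value. Of the 48, 21 (43.8%) were lower and 7 (14.6%) were higher in the Tom+ cells of both tumors, against 29.5% and 21.6% of all genes. The median difference was -0.074, against -0.033 for all genes. With nuclear protein-coding genes alone as the basis of TPM, 17 of 53 (32.1%) were lower and 10 higher in both. Of all genes 23.5% were lower and 27.3% higher in both under that setting. The median was -0.033, against 0.016 for all genes.

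Linker assembly, the step just before the choice between Extl2 and Extl3, had 7 of 7 genes tested. Xylt1, a xylosyltransferase that begins the linker, passed the filter through tumor #2 alone, with 0.143 and 0.348 TPM in tumor #1, against 1.26 and 1.47 TPM in tumor #2. Of the 7 genes 2 were lower and 1 was higher in both tumors, with a median of -0.15. Fam20b, the kinase that makes the substrate of Extl2, had the highest level, at 15.9 TPM in Tom- and 14.8 TPM in Tom+ cells of tumor #1, against 15.5 and 9.99 TPM in tumor #2. Its Tom+ level was the lower in both tumors, with a mean difference of -0.34 (SE 0.22, adjusted p = 0.936 with limma). Pxylp1, the opposing phosphatase, is named for that role and not by its values. It had 1.61 and 2.47 TPM in tumor #1, against 2.19 and 0.955 TPM in tumor #2, in opposite directions. B3gat3, which adds the last sugar of the linker, was picked out after its values were seen. It had 6.65 and 4.62 TPM in tumor #1, against 4.27 and 2.12 TPM in tumor #2, a mean difference of -0.60 (SE 0.23, adjusted p = 0.936 with limma).

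Of 16 genes that sulfate and modify the chain, 5 were tested and 6 were listed at 0 in every library. Of the 5, 3 were lower and 0 higher in both tumors (median -0.071). Ndst2, an N-deacetylase and N-sulfotransferase best known from mast cell heparin, led the list with 15.5 TPM in Tom- and 11.4 TPM in Tom+ cells of tumor #1, against 18.6 and 11.1 TPM in tumor #2. Both Tom+ values were below both Tom- values, with a mean difference of -0.55 (SE 0.19, adjusted p = 0.936 with limma). Ndst1, Glce, Hs2st1 and Hs6st1, which provide the further N-sulfation, epimerization, 2-O and 6-O sulfation, were the other tested genes and were between 2.53 and 7.49 TPM. All 7 Hs3st genes, the 3-O-sulfotransferases, were at or under 0.254 TPM.

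Of 13 genes for editing and breakdown of the chain, 10 were tested, with 4 lower and 2 higher in both tumors (median -0.12). Gusb, the lysosomal β-glucuronidase, had the highest mean over the 4 libraries. It had 38.6 and 38.5 TPM in tumor #1, against 52.5 and 57.9 TPM in tumor #2, a mean difference of 0.068 (SE 0.14, adjusted p = 0.966 with limma). Heparanase (Hpse), which cuts chains outside the lysosome as well, was noticed for its contrast between the tumors. It had 1.49 and 0.643 TPM in tumor #1, against 7.78 and 16.6 TPM in tumor #2, so the sign of its Tom+ difference was opposite in the tumors. The donor supply list, which makes and transports the sugar nucleotides and activated sulfate, had 14 of 15 genes tested, with 5 lower and 3 higher in both (median 0.0031). Gnpnat1, an acetyltransferase on the route to UDP-N-acetylglucosamine, the donor used by the family's transferases, had the highest mean over the 4 libraries, although Ugp2 was above it in Tom+ cells of tumor #1. It had 34.2 and 28.2 TPM in tumor #1, against 28.2 and 36.9 TPM in tumor #2, a mean difference of 0.055 (SE 0.23, adjusted p = 0.989 with limma).

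Chondroitin and dermatan sulfate are built on the same linker by other enzymes. Of 16 such genes 7 were tested, with 4 lower and 0 higher in both tumors (median -0.16). Chst3, a chondroitin 6-O-sulfotransferase, had 15.1 and 13.8 TPM in tumor #1, against 44.3 and 31.3 TPM in tumor #2, a mean difference of -0.30 (SE 0.19, adjusted p = 0.936 with limma). Of 16 core proteins 5 were tested, with 3 lower and 1 higher in both (median -0.24). The gene higher in both, Tgfbr3, passed the filter through tumor #2 alone. It had 0 and 0.0232 TPM in tumor #1, against 2.37 and 2.67 TPM in tumor #2. Srgn, the serglycin core protein of secretory granules, led with 42.7 and 28.9 TPM in tumor #1, against 141 and 112 TPM in tumor #2, a mean difference of -0.44 (SE 0.14, adjusted p = 0.936 with limma). The cell surface cores that usually carry heparan sulfate were mostly low. All 6 glypicans were at or under 0.121 TPM, and of the syndecans only Sdc4 exceeded 2 TPM. Sdc4 had 31.4 and 25.1 TPM in tumor #1, against 69.0 and 56.9 TPM in tumor #2.

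**Figure D4:**
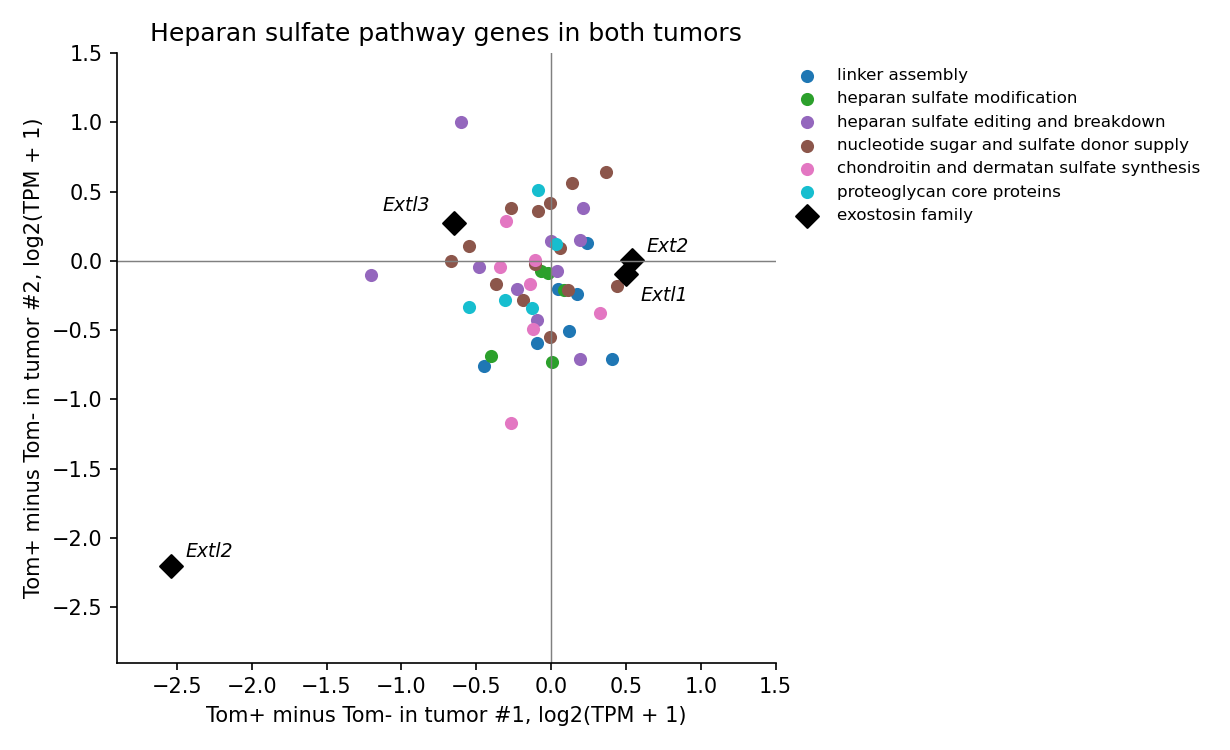
Tom+ minus Tom- difference in log2(TPM + 1), tumor #1 on the x axis and tumor #2 on the y axis. Circles are the 48 pathway genes tested, colored by list, and diamonds are the 4 exostosin genes tested; Extl2 sits alone at -2.54 and -2.20, the position it was selected for, and the other diamonds lie among the circles.

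Genes with a pattern like that of Extl2 were ranked by the Euclidean distance of their log2(TPM + 1) values, each centered on its mean over the 4 libraries, among 10078 protein-coding genes. A gene with no difference at all would lie 2.42 from Extl2. The closest was Cdc42bpg, a kinase that binds Cdc42, at 0.576, with 7.16 and 1.10 TPM in tumor #1, against 8.03 and 1.79 TPM in tumor #2. Ccdc73 followed at 0.906, 1810043G02Rik at 0.972, Rpl9-ps6 at 1.03 and Rccd1 at 1.04. Rccd1 was the only one of the 5 with a higher level than Extl2 in every library, at 27.1 and 10.7 TPM in tumor #1, against 42.9 and 14.8 TPM in tumor #2. Rpl9-ps6 was listed at 0 in both Tom+ libraries and is named as a pseudogene of a ribosomal protein, so its reads may be shared with near-identical copies and its value is uncertain. None of the 5 lies on chromosome 3 or belongs to the pathway lists. The lists hold only 48 of the 11339 genes tested, and the share of genes on chromosome 3 was not counted. Nothing is therefore read from either absence. With 4 libraries the ranking is a description.

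The libraries were B cell libraries by their markers, and 9 of 9 B cell genes were at or above 1 TPM in each. Summed marker levels were 2480 to 5159 TPM in Tom- and 2316 to 5999 TPM in Tom+ cells. Sums of the T cell, NK cell and myeloid lists were at or under 10.9 TPM in every library, with Ly6g and 3 of 4 NK cell genes at 0. Stromal and endothelial genes summed to 15.1 to 50.4 TPM, nearly all of it Pecam1, which B cells express too. The erythroid list summed to 19.2 and 16.3 TPM in the Tom- and Tom+ cells of tumor #1 and to under 1 TPM in tumor #2, with 4 of 6 genes at 0. Plasma cell genes summed to 30.9 and 34.7 TPM in Tom- cells and to 35.1 and 261 TPM in Tom+ cells, the last being tumor #2, where Jchain had 209 TPM. This set the tumor #2 Tom+ library apart, and its part in the values of the family was not tested. The Extl2 differences, on which the gene was selected, were -2.54 in tumor #1 and -2.20 in tumor #2. Their relation to the plasma cell sum was not tested. Immunoglobulin genes took 5.35% to 9.76% and mitochondrial genes 6.61% to 15.6% of TPM. Pseudogenes took more, at 31.3% in Tom- and 30.3% in Tom+ cells of tumor #1, against 25.4% and 23.4% in tumor #2. Rescaling TPM to nuclear protein-coding genes alone leaves pseudogenes out. The mean Tom difference was then -2.43 for Extl2 (-2.37 in the main fit) and 0.36 for Ext2 (0.27). It was 0.33 for Extl1 (0.20) and -0.18 for Extl3 (-0.19). Whether reads were shared between pseudogenes and other genes was not tested. The mouse Myc gene was between 38.1 and 45.6 TPM.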

How the data were processed

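RNA of the 4 libraries was poly(A) selected and sequenced as 60-base single reads. The authors trimmed reads with Cutadapt, dropped those under 30 bases, quantified the rest with Salmon 1.9 (version from the submitters' processing notes, as for CASAVA 1.8) on the GRCm38 transcriptome, release 76 in the methods, and deposited TPM per gene. Each library sums to 1000000 TPM, so its depth is unknown, no counting interval can be given, and a value of 0 has no stated detection limit. How strand was treated, and how transcripts were summed to genes, is not given in the sources used here. Some identifiers look newer than that release, so the annotation behind the values is uncertain.

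Symbols and positions came from GENCODE M21, which held 34652 of 34866 identifiers, and promoter sequence from RefSeq (GRCm38.p6). Genes with at least 1 TPM in at least 2 libraries were tested as log2(TPM + 1) with limma (version 3.58.1, R 4.3.3) on Tom status plus tumor, using a variance trend (residual degrees of freedom 1, prior 2.21), two-sided, and Benjamini-Hochberg adjustment over all genes at a threshold of 0.05. The tumor was a block because its libraries come from the same mouse. The numbers also paired the samples in the data (across genes, deviations of same-tumor libraries correlated at a Pearson's r of 0.626 and a Spearman's rho of 0.669). The authors' test, paired edgeR, needs counts and was not run. Since n is 2 mice, the spread of a gene comes from 2 pairs only. Limma moderates it toward the trend over all genes tested, and the prior outweighs the gene's own degree of freedom. The p-values therefore do not measure the spread of that gene alone.

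The family and the pathway lists were chosen with earlier results of these data known, and the lists were written from general knowledge. Genes named were the family, in each list the members with an unadjusted p below 0.05 and the member with the highest mean TPM, the 5 protein-coding genes nearest to Extl2 in pattern (immunoglobulin genes left out), and the genes within 100 kb of it. Further genes were picked out for their role or with their values in view. Alternatives dropped the block, the filter, the variance trend or 1 tumor, set the pseudocount to 0.1 or 0.5 or the filter to a mean TPM of 5 or more, or used trimmed-mean scaling, quantile normalization or nuclear protein-coding genes alone. Python 3.11.15 with pandas 2.3.3, numpy 2.4.6 and matplotlib 3.10.9 made the tables and plots. The driver of the Cre allele is not reported here.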

Additional observations from a re-analysis of the deposited data

Results flagged for a closer look

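Extl1 and Extl3 differed in the direction of their Tom+ minus Tom- values between the tumors. For Extl1 the log2 difference was 0.50 in tumor #1 and -0.097 in tumor #2. For Extl3 it was -0.65 in tumor #1 and 0.27 in tumor #2. Each value rests on 1 pair of libraries, and the difference between the tumors was not tested.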

How the results depend on the processing

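Of 91 values recomputed under the alternatives, 2 changed sign. Adjusted p-values of Ext2, Extl1 and Extl3 ranged from 0.915 to 1.0. Without the replicate block the Ext2 difference was 0.27 and its adjusted p was 1.0, and the genes with an unadjusted p below 0.05 numbered 140 in place of 530, while the block changed no call at an adjusted p of 0.05. Leaving out 1 tumor gave 0.0057 to 0.54 for Ext2, -0.097 to 0.50 for Extl1 and -0.65 to 0.27 for Extl3. The signs of Extl1 and Extl3 turned when tumor #1 was left out. With 1 tumor left out the pathway median was -0.14 to -0.088. With nuclear protein-coding genes only it was -0.033, against 0.016 for all genes. With a pseudocount of 0.1 the Tom difference was -2.62 for Extl2 and 0.50 for Extl1, against 0.20 as reported. Pathway genes with an unadjusted p below 0.05 were 0, but 1 without a filter (Srgn) and 1 at a mean TPM of at least 5 (Ndst2). With quantile normalization the tumor differences were 1.16 for Ext2, 0.77 for Extl1 and 0.14 for Extl2, and with a pseudocount of 0.1 that of Extl1 was 2.12. The cause of these shifts was not tested. At a mean TPM of at least 5, Extl1 and Extl3 fell under the filter and gave no value. Without a filter, Ext1 had a difference of 0.17 (adjusted p = 0.941 with limma). With 2 mice and unknown depth, modest changes and values under 1 TPM cannot be resolved.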
